A study of Mus musculus with 6 samples.

Results

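Integrins are cell surface receptors, each built of an alpha and a beta subunit, that tie the cytoskeleton to the matrix outside the cell or to other cells. Laminins are trimers of an alpha, a beta and a gamma chain, and form the scaffold of basement membranes together with type IV collagen, nidogens and the proteoglycans perlecan and agrin. In the brain such membranes surround blood vessels and line the surface beneath the meninges, and glioma cells are known to migrate along them. The genes were chosen by their symbols in the array annotation, as all those of integrin alpha and beta subunits, laminin chains, nidogens, perlecan (Hspg2) and agrin (Agrn). The rule matched 43 genes with 96 probes, of 19057 genes with 34885 probes on the array. Of the 43 genes, 26 encode integrin subunits and 13 basement membrane components. The other 4 matched by symbol only and encode no integrin subunit (Itgb1bp1, Itgb1bp2, Itgb3bp and Itgbl1).

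The values come from 6 bead arrays of mouse glioma RNA, 2 from HoxA5 tumours and 4 from mCherry tumours. HoxA5 tumours were started with chicken DF1 fibroblasts that release RCAS virus for PDGFb, mixed with DF1 cells that release virus for HoxA5. In mCherry tumours, the controls, the second virus carried the fluorescent protein mCherry. All mice were adults with the Ntva transgene, which puts the virus receptor under the nestin promoter of neural progenitors, so that infection is aimed at such cells. All had lost 1 or both copies of Ink4a/Arf (Ntva-Ink4a/Arf+/- or Ntva-Ink4a/Arf-/-) on mixed FVB/N, C57BL6, BALB/C and 129 backgrounds, and the genotype of each tumour is unknown here. The cells were injected into the right frontal cortex, and the mice were watched until they showed signs of illness. The comparison asks whether raised Hoxa5 makes PDGF-driven tumours more aggressive. Whether the tumours of a group grew in different mice is not stated, so the p-values cover the spread between these arrays, which may be technical.

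Levels are log2 intensities after background correction and quantile normalization, and a difference is the HoxA5 mean minus the mCherry mean. Arrays detected 20097 and 20970 probes in HoxA5 tumours, against 19950 to 21904 in mCherry tumours. The array's Hoxa5 probe was not above background on any array (lowest detection p-value 0.0652), and which transcript part it covers is not known, so it does not check the delivered gene. Markers of glioma progenitors (7 of 8 tested, 0 called) averaged 10.82 and 11.16 in HoxA5 tumours, against 9.33 to 10.86 in mCherry tumours. Across genes, the mCherry 4 array correlated with the HoxA5 arrays at 0.963 and 0.962, close to the 0.968 between the HoxA5 arrays themselves. The other mCherry arrays correlated with them at 0.842 to 0.916. Over all 12242 genes tested, 148 were called higher and 568 lower in HoxA5 tumours (limma, Benjamini-Hochberg adjusted p under 0.05), which is 1.21% and 4.64%. The split was 148 and 568 with quantile normalization and 265 and 437 with median scaling, where the median over all genes was 0.20 in place of 0.072. Leaving out mCherry 3 gave 522 genes called. Of all genes tested, 119 were called without HoxA5 1, 2 without HoxA5 2, 171 without mCherry 1, 247 without mCherry 2 and 2408 without mCherry 4.

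Itgb4, the integrin subunit that pairs with alpha6 to bind laminin in hemidesmosomes, was the 1 member that passed the test, and it fell 5.81-fold. The positive differences with the largest folds were those of perlecan (4.43-fold), integrin alpha5 (3.47-fold), integrin alpha1 (3.20-fold), integrin beta1 (3.09-fold) and laminin beta1 (3.01-fold), and none of the 5 passed. Of the 43 members, 36 met the detection filter and were tested, with 0 called higher and 1 called lower. The shares called over all genes were 1.21% higher and 4.64% lower, so the members' counts were not above the background. At an unadjusted p under 0.05, 8 members were higher and 2 lower (limma), which is 22.2% and 5.56% of the members against 11.5% and 13.1% of all genes. Both HoxA5 arrays lay above all mCherry arrays for 8 members (22.2%) and below them for 1 (2.78%), against 18.3% and 17.2% of all genes. Differences were positive for 26 members (72.2%), against 54.8% of all genes. The median difference was 0.30 over the 20 integrin subunits tested and 0.92 over the 13 basement membrane genes, against 0.072 over all genes tested. Without background correction these medians were 0.08, 0.52 and 0.04. In bulk tumour RNA, fewer cells of a type and less RNA per cell cannot be told apart.

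**Figure D1:**
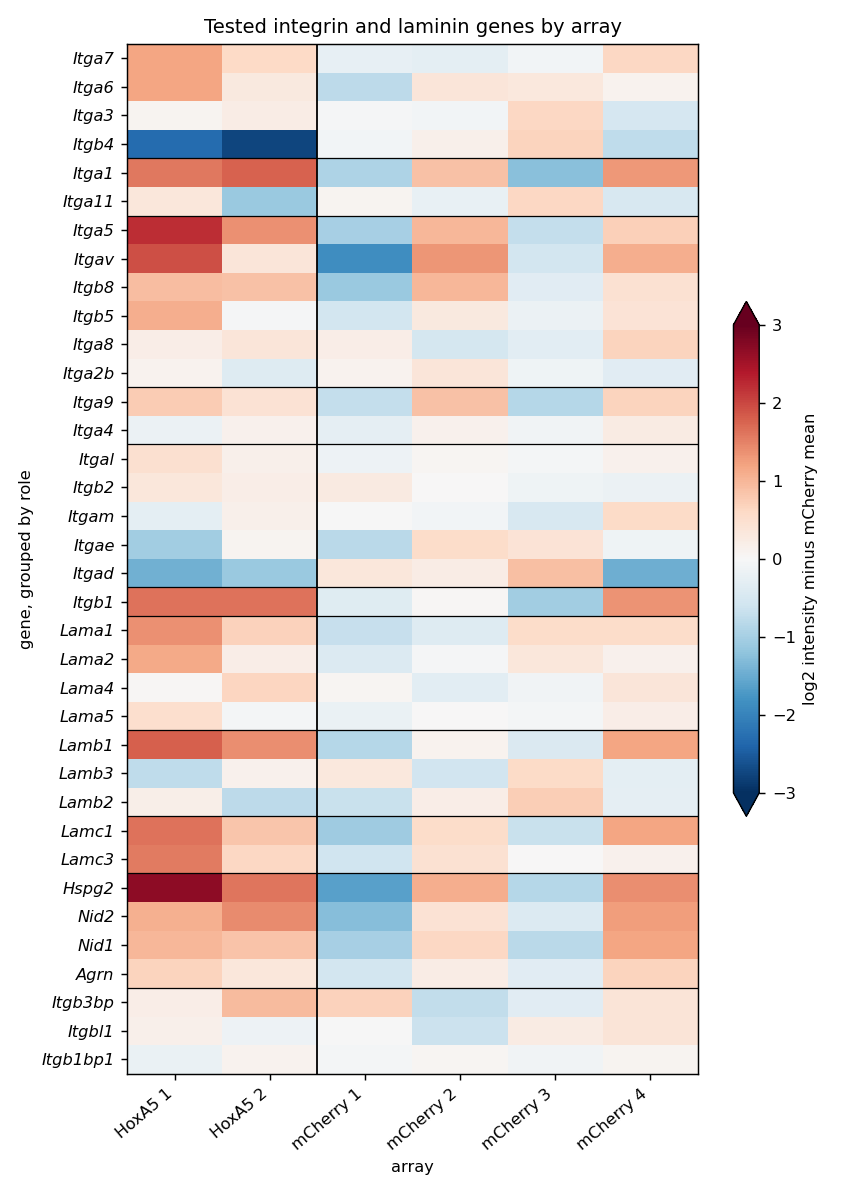
Log2 intensity of each tested member (rows, grouped by role) on each array (columns), minus that member's mCherry mean. The Itgb4 and Itgad rows are low on both HoxA5 arrays and near or above their mCherry means on mCherry 1 to 3, and many laminin and nidogen rows are high on both HoxA5 arrays and on mCherry 4.

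**Figure D2:**
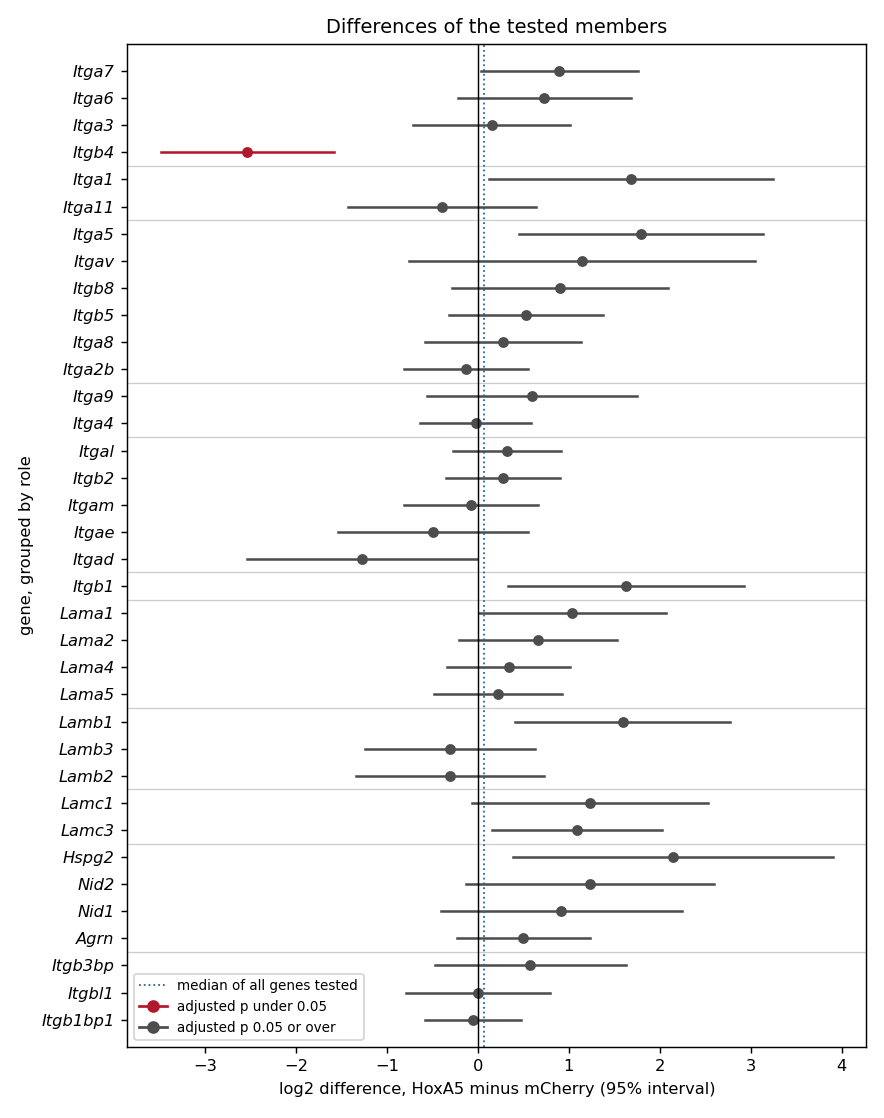
Log2 difference of each tested member, HoxA5 minus mCherry, with its 95% interval from limma; the dotted line marks the median of all genes tested. The interval of Itgb4 runs from -3.49 to -1.59, and it is the 1 member with an adjusted p under 0.05.

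Among the subunits of laminin-binding integrins, Itgb4 had levels of 6.55 and 6.09 in HoxA5 tumours, against 8.77, 9.01, 9.53 and 8.10 in mCherry tumours. The groups did not overlap, and mCherry 4 was the lowest of the controls. The HoxA5 mean was 6.32 ± 0.323 (SD, n = 2) and the mCherry mean 8.86 ± 0.595 (SD, n = 4), a log2 difference of -2.54 (SE 0.423, limma adjusted p = 0.0122). The gene's second probe moved the same way, with a difference of -1.71. Itgb4 did not pass without HoxA5 1 (difference -2.76, limma adjusted p = 0.0678) or without HoxA5 2 (-2.29, limma adjusted p = 0.162), and passed without each mCherry array in turn. It also passed, with smaller differences, in the authors' deposited log2 values (-1.57) and without background correction (-1.55).

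Lists of normal brain cell markers, like Itgb4, averaged lower on both HoxA5 arrays than on all mCherry arrays, though not every gene in them did. The neuron list (9 of 11 genes tested, 8 lower; Snap25 and Nefl did not meet the filter) averaged 9.74 and 8.70 in HoxA5 tumours, against 12.27, 12.52, 12.79 and 11.10 in mCherry tumours. The myelin list (8 of 10 tested, 6 lower) averaged 9.72 and 8.98 in HoxA5 tumours and 10.90 to 11.82 in mCherry tumours. The astrocyte list (9 of 9 tested, 2 lower) averaged 10.69 and 10.54, against 10.86 to 11.51. Within it Gfap (0.18) and S100b (0.65) had positive differences that did not pass. HoxA5 2, HoxA5 1 and mCherry 4 were thus the 3 lowest arrays, in that order, for Itgb4 and for all 3 lists. The choroid plexus and ependyma list (6 of 6 tested, 3 lower) averaged 6.00 and 5.93 in HoxA5 tumours, against 7.72 to 9.71 in mCherry tumours, with the same arrays lowest in the same order. Over all genes tested, mCherry 4 was the control nearest to the HoxA5 mean for 53.1%. The share of all genes with the whole order was not counted. The part of these cell types in the level of Itgb4 was not tested.

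The alpha subunits of the laminin receptors had positive differences that did not pass. Itga6, the alpha6 subunit with which beta4 pairs, was at 6.92 and 6.03 in HoxA5 tumours, against 4.95, 6.11, 6.07 and 5.85 in mCherry tumours. The groups overlapped, and the difference was 0.73 (limma adjusted p = 0.320), while a second probe gave -0.28. Itga7, the laminin receptor of muscle, was at 7.46 and 6.87 in HoxA5 tumours and at 6.03, 5.98, 6.19 and 6.89 in mCherry tumours, where mCherry 4 alone reached the lower HoxA5 array. Its difference was 0.89 (limma adjusted p = 0.191). Itga3 was at 7.44 and 7.60 against 6.86 to 7.98, with a difference of 0.15 (95% interval -0.71 to 1.01).

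Itgb1, the beta subunit shared by the laminin, collagen and fibronectin receptors, was at 8.52 and 8.52 in HoxA5 tumours, against 6.54, 6.93, 5.86 and 8.25 in mCherry tumours. Both HoxA5 arrays lay above the controls, of which mCherry 4 stood far nearer to them than the other 3. The difference was 1.63 (SE 0.579, limma adjusted p = 0.126), and the second probe gave 1.24. Itga5, whose product joins beta1 as the classical fibronectin receptor, was at 8.61 and 7.77 in HoxA5 tumours and at 5.41, 7.39, 5.68 and 7.11 in mCherry tumours. The controls fell into a low pair, mCherry 1 and 3, and a higher pair, mCherry 2 and 4. The difference was 1.79, or 3.47-fold (limma adjusted p = 0.108), and that of the second probe 0.99. Without background correction both differences were 0.96, and neither passed.

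Other subunits that bind the RGD motif of fibronectin and vitronectin had smaller differences. Itgb8, which takes part in activating latent TGF-beta, was at 6.65 and 6.59 in HoxA5 tumours, against 4.60, 6.70, 5.38 and 6.17 in mCherry tumours. Its difference was 0.90 (limma adjusted p = 0.322), with mCherry 2 above both HoxA5 arrays. Itgb5 was at 11.41 and 10.29 against 9.78 to 10.74 and differed by 0.53, and by -0.03 without HoxA5 1. Itgav, the alpha subunit that joins beta5 and beta8, had 4 probes that passed the filter, and all 4 had positive differences, from 0.17 to 1.15. Its brightest probe was at 9.73 and 8.14 in HoxA5 tumours and ran from 5.92 to 9.12 in mCherry tumours. Itga8 differed by 0.28 and Itga2b, the platelet subunit, by -0.13. Itgb3, the partner of both Itgav and Itga2b, and Itgb6, an epithelial subunit, were above background on 0 of 6 arrays.

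Of the collagen receptors, Itga1 was at 8.37 and 8.57 in HoxA5 tumours, against 5.87, 7.67, 5.53 and 8.10 in mCherry tumours. The HoxA5 arrays lay above the controls, which again split into mCherry 1 and 3 below and mCherry 2 and 4 above. The difference was 1.68, or 3.20-fold (limma adjusted p = 0.176). Itga11, a collagen receptor of fibroblasts, was at 6.36 and 4.92 in HoxA5 tumours and at 6.10, 5.81, 6.66 and 5.55 in mCherry tumours, with a difference of -0.39 (95% interval -1.43 to 0.64). That difference was 0.32 without HoxA5 2. Itga2 was above background on 0 of 6 arrays. Itga9 differed by 0.60 and Itga4, whose product helps leukocytes leave vessels, by -0.02 (95% interval -0.63 to 0.58), neither passing. The Itga4 probe was above background on only 3 of 6 arrays, so a difference could be hidden by its dim signal.

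The leukocyte integrins were dim, and none passed. Itgad, which encodes an alpha subunit of macrophages, was at 4.53 and 4.87 in HoxA5 tumours, against 6.31, 6.21, 6.87 and 4.51 in mCherry tumours. It was not above background on either HoxA5 array or on mCherry 4, and met the filter through mCherry 1 to 3 alone. On the background-corrected scale its mean was at least 1.77-fold lower in HoxA5 tumours (4.70 against 5.98), which did not pass (limma adjusted p = 0.201). The 95% interval ran from -2.55 to -0.0072, and the difference was -0.41 without background correction. Itgad had to differ to meet the filter. A second of its 5 probes was at 4.56 and 4.50 in HoxA5 tumours, against 6.23, 5.91, 6.20 and 4.56 in mCherry tumours, above background on the same 3 arrays. Itgb2, the shared beta subunit of leukocytes, was at 5.72 and 5.58 in HoxA5 tumours and 5.20 to 5.65 in mCherry tumours, with a difference of 0.28 (95% interval -0.35 to 0.90). Itgal, its alpha partner on lymphocytes, differed by 0.32, Itgam, its partner on myeloid cells, by -0.08, and Itgae, an alpha subunit of tissue-resident T cells, by -0.49. Itgax, Itgb7 and Itgb2l were above background on 0 of 6 arrays. Beside them, the microglia and macrophage list (9 of 11 tested, 0 called) averaged 9.96 and 9.83 in HoxA5 tumours, against 9.56 to 9.98 in mCherry tumours. The monocyte and neutrophil list (5 of 10 tested, 0 called) averaged 7.41 and 6.95 in HoxA5 tumours, against 5.26, 6.04, 5.75 and 6.76 in mCherry tumours, without overlap, and had a median difference of 1.22. Its differences ran from 0.19 for Csf3r to 2.70 for Arg1, and Ccr2, Mmp8, Retnlg and Cxcr2 did not meet the filter. The T and NK cell list (4 of 8 tested, 0 called; Cd4, Cd8a, Nkg7 and Gzmb did not meet the filter) averaged 6.48 and 6.27, against 6.20 to 6.79. Its genes disagreed in sign, and its median difference was -0.45. Cd8b1, by far the brightest, had a difference of 0.78, while those of Cd3e (-0.86), Cd3d (-0.50) and Cd3g (-0.40) were negative. Cd3d and Cd3g met the filter through mCherry arrays alone and had to differ.

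Basement membrane genes had mostly positive differences, 11 of 13, though none passed. Lamb1, the laminin beta1 chain, was at 7.37 and 6.96 in HoxA5 tumours, against 4.71, 5.69, 5.13 and 6.76 in mCherry tumours. Both HoxA5 arrays were above all controls, with mCherry 4 close beneath. The difference was 1.59, or 3.01-fold (SE 0.526, limma adjusted p = 0.105), and it was 0.62 without background correction. Lamb2, the beta2 chain of mature vessels and synapses, was at 7.96 and 7.01 in HoxA5 tumours and at 7.12, 7.99, 8.52 and 7.53 in mCherry tumours, a difference of -0.31 (95% interval -1.34 to 0.73). It was 0.17 without HoxA5 2. Lamb3, a chain of epithelial laminin, differed by -0.31, and by 0.13 without HoxA5 1. The beta1 and beta2 chains therefore had differences of opposite sign, but a test between them was not run.

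Promoters are shown for the 3 members Lamb1, Itga5 and Itgb1, which had the smallest p among positive differences, because Hoxa5 encodes a homeodomain protein and this class of factor binds sites with a TAAT core. Each sequence is the 250 bases before the start listed by RefSeq (GRCm38.p6), 5′ to 3′ on the gene's strand. Capitals mark TAAT and the GC box GGGCGG on either strand. The windows are chr12:31265043-31265292 (plus strand), chr15:103366792-103367041 (minus strand) and chr8:128685404-128685653 (plus strand).
Lamb1: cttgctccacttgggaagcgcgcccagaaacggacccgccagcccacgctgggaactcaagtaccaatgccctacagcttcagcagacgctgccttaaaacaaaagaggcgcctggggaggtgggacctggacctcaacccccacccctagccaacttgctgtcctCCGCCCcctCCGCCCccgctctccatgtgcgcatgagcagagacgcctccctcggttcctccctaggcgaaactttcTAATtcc
Itga5: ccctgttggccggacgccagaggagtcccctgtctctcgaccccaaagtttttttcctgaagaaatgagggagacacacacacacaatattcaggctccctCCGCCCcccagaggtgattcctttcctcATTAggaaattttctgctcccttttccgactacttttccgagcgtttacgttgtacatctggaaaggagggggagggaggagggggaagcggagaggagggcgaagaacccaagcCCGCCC
Itgb1: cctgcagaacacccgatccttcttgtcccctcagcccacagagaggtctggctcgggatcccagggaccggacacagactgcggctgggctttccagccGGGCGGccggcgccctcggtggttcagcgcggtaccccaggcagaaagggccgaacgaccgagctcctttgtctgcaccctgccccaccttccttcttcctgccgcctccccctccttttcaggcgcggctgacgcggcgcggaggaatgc
Lamb1 and Itga5 each hold 1 TAAT and 2 GC boxes, and Itgb1 holds 0 and 1. Of the 43 members 29 had a window in the RefSeq table, and Itgb4 was among the 14 that had none. TAAT occurred in 9 of the 29 windows (31.0%), against 55.3% of the 27025 windows of all genes, and GGGCGG in 12 (41.4%), against 32.9%. TGATNNAT, the joint motif of Hox and Pbx proteins, occurred in 2 (6.90%), against 7.91%. The TAAT and TGATNNAT searches ran on both strands and their matches can overlap. A match is a string of letters and no measured binding site.

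Lamc1, the gamma1 chain found in most laminin trimers, was at 11.49 and 10.68 in HoxA5 tumours, against 8.78, 10.41, 9.18 and 11.03 in mCherry tumours. The groups overlapped through mCherry 4, and both probes gave like differences, 1.23 and 1.20 (limma adjusted p = 0.222 for the brighter). Lamc3 was at 7.77 and 6.82 in HoxA5 tumours and at 5.61, 6.65, 6.21 and 6.33 in mCherry tumours, without overlap, and differed by 1.09 (limma adjusted p = 0.148). All 4 alpha chains had positive differences. Lama1, the alpha1 chain of early embryos and of the membrane under the meninges, was at 7.90 and 7.21 against 5.82, 6.14, 7.06 and 7.06, a difference of 1.04 (limma adjusted p = 0.201). Lama2, the alpha2 chain made by muscle and by vessel-associated cells of the brain, differed by 0.66, Lama5 of adult vessels by 0.22 and Lama4 of endothelium by 0.34. The probe that reads Lama4 was above background on 2 of 6 arrays, and another of its probes on 3.

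Hspg2, which encodes perlecan, had the largest positive difference of the tested members. Its levels were 11.71 and 10.62 in HoxA5 tumours, against 7.39, 10.10, 8.17 and 10.42 in mCherry tumours, and its second probe ranked the arrays in the same order. The difference was 2.15, or 4.43-fold (SE 0.783, limma adjusted p = 0.134). HoxA5 2 stood only just above mCherry 4. Nid2 was at 8.74 and 9.10 in HoxA5 tumours and at 6.41, 8.12, 7.27 and 8.93 in mCherry tumours, a difference of 1.24 (limma adjusted p = 0.241). Nid1, the other linker between laminin and type IV collagen, was at 9.24 and 9.09 against 7.25, 8.86, 7.44 and 9.43, where mCherry 4 was the highest of all arrays (difference 0.92). Agrn, known as the organiser of acetylcholine receptors at the nerve-muscle junction, differed by 0.50.

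**Figure D3:**
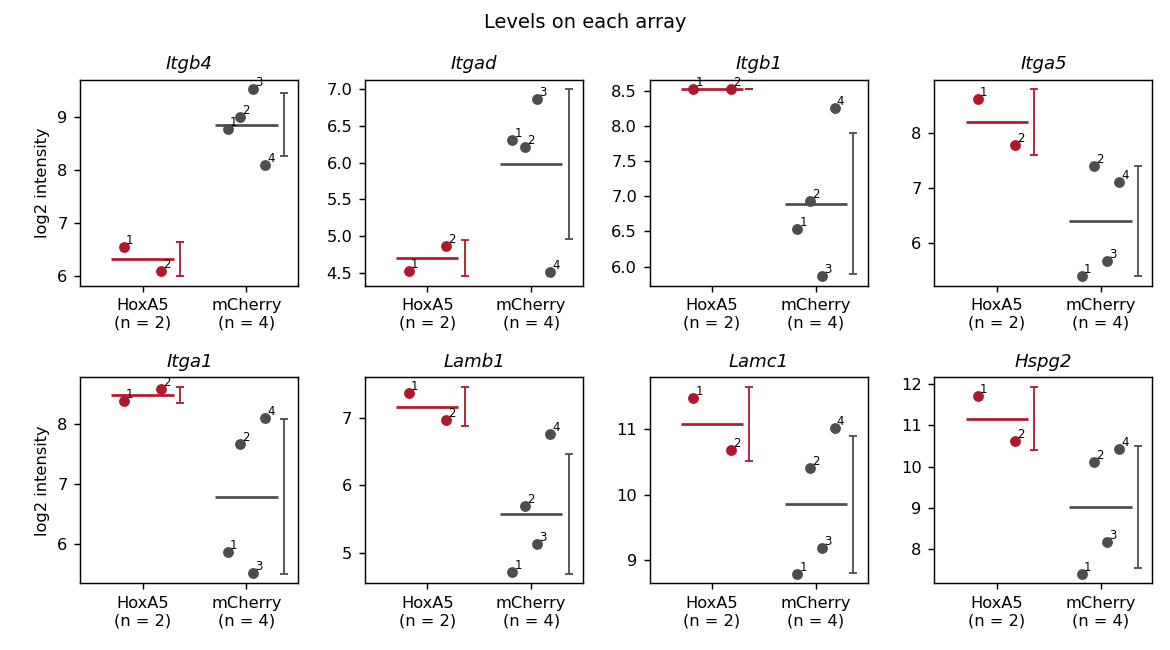
Log2 intensity of 8 members on each array (points, numbered by replicate), with group means (lines) and SD (bars). Itgb4 separates the groups by more than the range within either. For Itgb4, Itgad, Itgb1, Itga1, Lamb1, Lamc1 and Hspg2 mCherry 4 is the control nearest to the HoxA5 mean, as it is for 53.1% of all genes tested.

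Most basement membrane genes shared their lowest array. Their median level was 7.90 and 7.01 in HoxA5 tumours, against 6.26, 6.65, 7.06 and 7.06 in mCherry tumours. Of the 13 genes, 10 were lowest on mCherry 1 (76.9%, against 18.1% of all genes tested), and 8 were highest on HoxA5 1 (61.5%, against 22.8%). HoxA5 1 was above HoxA5 2 for 10 of the 13 (76.9%, against 51.2%). For 11 of them mCherry 4 was the control array nearest to the HoxA5 mean. Over all tested members it was nearest for 21 of 36 (58.3%), close to the 53.1% of all genes.

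The fibroblast list (9 of 9 tested, 5 higher) averaged 10.36 and 8.78 in HoxA5 tumours, against 6.99, 7.63, 7.27 and 8.05 in mCherry tumours. Thy1 of the same list had a difference of -1.14 that did not pass (limma adjusted p = 0.186). The mitosis list (11 of 14 tested, 7 higher) averaged 8.65 and 8.92 in HoxA5 tumours, against 6.63, 6.73, 5.59 and 7.69 in mCherry tumours. Among the 7, Ttk, Ube2c and Ccna2 were not above background on any mCherry array. They met the filter through the HoxA5 arrays alone and had to differ, as did Lrrc15 of the fibroblast list. The share called higher over all genes was 1.21%. Endothelial markers (9 of 10 tested, 1 lower) averaged 9.01 and 8.72 in HoxA5 tumours and 8.35 to 8.98 in mCherry tumours, with a median difference of 0.42. Ly6c1, the 1 called lower, had a difference of -1.49. Mural cell markers (7 of 8 tested, 2 higher) averaged 7.98 and 7.56, against 6.85 to 8.0, with a median difference of -0.03. Among them Rgs5, a pericyte marker, had a difference of -1.21 and did not pass (limma adjusted p = 0.0599), while the smooth muscle genes Tagln and Acta2 were the 2 that rose. Endothelial and mural cells are the vessel cells that lay down much of the basement membrane. The part of any of these cell types in the laminin and nidogen levels was not tested.

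**Figure D4:**
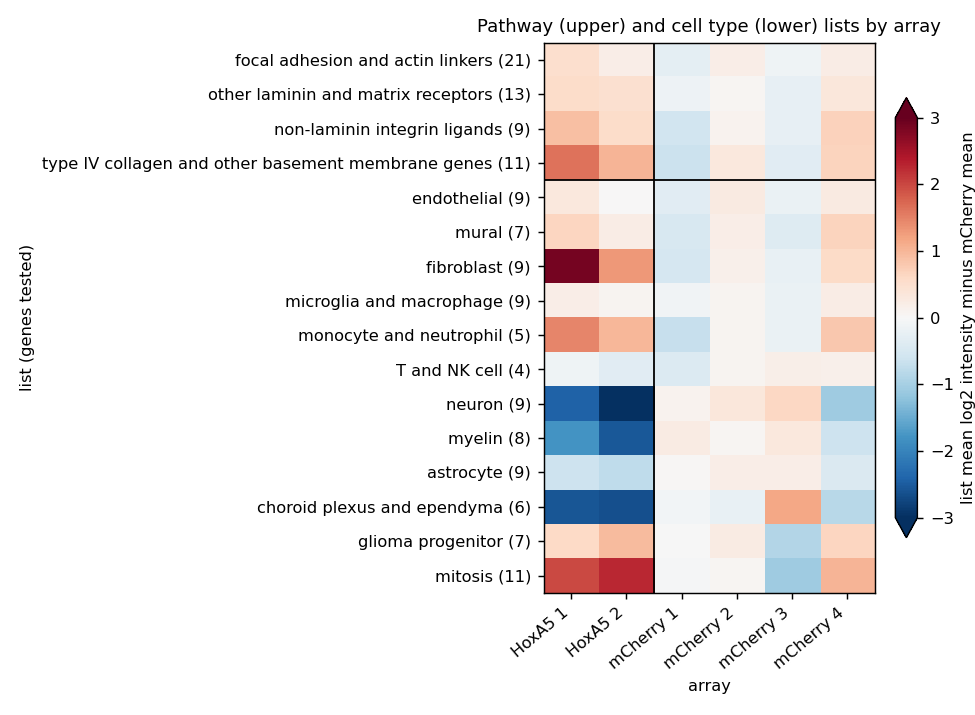
Mean log2 intensity of each pathway and cell type list with at least 4 tested genes (rows, number tested in brackets) on each array (columns), minus the mCherry mean of that list. The neuron, myelin and choroid plexus rows are lowest on both HoxA5 arrays, with mCherry 4 the lowest control, and the fibroblast and mitosis rows are highest there.

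Leaving out mCherry 4 changed the calls more than any other alternative tried. Without it 8 members were called higher and 2 lower of 35 tested (22.9% and 5.71%), against 8.57% and 11.3% of all genes. The higher ones were Lamb1, Itgb1, Hspg2, Itga1, Lamc1, Lama4, Itga5 and Nid2, with adjusted p-values in limma from 0.00690 to 0.0409. Lamb1 was then 4.01-fold, Itgb1 4.25-fold and Hspg2 6.18-fold higher. Lama4 was read there by another of its probes. Among the arrays kept, that probe was above background on the HoxA5 arrays alone, so that it met the filter only where it was high. Over all arrays it was highest on mCherry 4, the array left out, at 5.73, against 5.57 and 5.24 in HoxA5 tumours. The lower ones were Itgb4, at -2.80, and Itgad. Itgad met the filter only through the mCherry arrays, where it was high, so that it had to differ, and its call supports nothing further. With any other array left out, 0 members were called higher. The 8 and 2 describe a comparison with 3 controls, and the labels give no reason to set mCherry 4 aside.

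**Figure D5:**
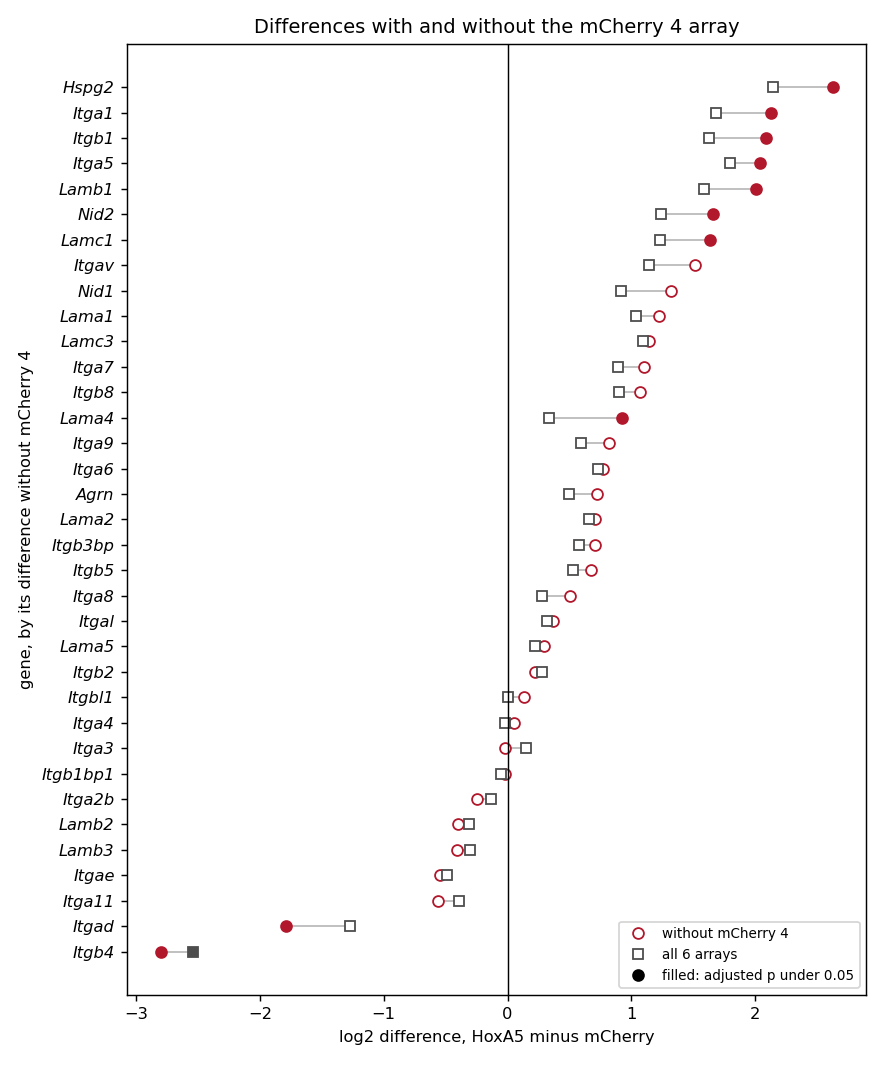
Log2 difference of each member, HoxA5 minus mCherry, without the mCherry 4 array (circles) and with all 6 arrays (squares), filled where the limma adjusted p is under 0.05. Without that array 10 members are filled, against Itgb4 alone with all arrays; the Lama4 circle comes from a different probe than its square.

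Among the genes that link integrins to actin, 1 of 21 tested was called, against 5.85% of all genes. This was Ptk2b, a kinase related to focal adhesion kinase and abundant in neurons, at 6.32 and 5.95 in HoxA5 tumours, against 9.21, 9.02, 9.49 and 7.75 in mCherry tumours. It fell by 2.73 on the log2 scale (limma adjusted p = 0.0153), and did not pass without HoxA5 1, HoxA5 2, mCherry 1 or mCherry 2 (limma adjusted p of up to 0.172). Lims1, an adaptor of integrin-linked kinase, differed by 1.38 and vinculin (Vcl) by 0.94, without passing. The median of the list was 0.54. Of 13 other matrix receptors tested, 1 was called higher, the syndecan Sdc1, against 1.21% of all genes. Its levels were 6.77 and 6.58 in HoxA5 tumours, against 4.79, 4.56, 4.40 and 5.22 in mCherry tumours, all 4 below the detection threshold. The rise of its mean was thus at least 2.95-fold on the background-corrected scale (limma adjusted p = 0.0114). Sdc1 met the filter only through the HoxA5 arrays, where it was high, so a difference was bound to appear, and it was not tested when either of them was left out. Its fitted difference, which is no bound, was 1.93, and 0.66 without background correction. In the same list dystroglycan (Dag1) differed by 1.17 and the tetraspanin Cd151, which binds laminin receptors, by 0.81.

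Of 9 other integrin ligands tested, 1 rose and 1 fell, against 1.21% and 4.64% of all genes. Thbs2, a thrombospondin, was at 10.59 and 9.50 in HoxA5 tumours, against 7.41, 8.39, 8.23 and 8.81 in mCherry tumours, and rose 3.58-fold (limma adjusted p = 0.0443). Vtn, vitronectin, was at 9.33 and 8.38, against 10.62, 10.18, 10.67 and 10.35, and fell by 1.60 (limma adjusted p = 0.0223); it did not pass without HoxA5 2, mCherry 1 or mCherry 2 (limma adjusted p 0.0503 to 0.228). Tenascin C (Tnc) had a difference of 3.21 with an adjusted p of 0.0523 in limma. As the mean of its probes the Tnc difference was 1.80 (limma adjusted p = 0.0575). Tnc passed under some alternatives, such as without background correction (limma adjusted p = 0.0411). Among 11 tested type IV collagen and other basement membrane genes the fibulin Fbln2 rose, 4.52-fold (limma adjusted p = 0.0433), with 10.75 and 8.78 in HoxA5 tumours against 6.98 to 7.85 in mCherry tumours. Col18a1, the source of endostatin, differed by 3.04 (limma adjusted p = 0.0534). That list's median was 1.00, beside 0.92 for the laminins, nidogens and proteoglycans. Neither Thbs2 nor Fbln2 passed when any array other than mCherry 4 was left out (limma adjusted p 0.0608 to 0.337 and 0.0515 to 0.328), nor without the detection filter or the intensity trend. Fbln2 also did not pass without background correction (limma adjusted p = 0.0552), in the authors' deposited values or as the mean of its probes. Over the 4 lists 5 of 54 genes tested were called with all arrays (9.26%, against 5.85% of all genes). The count was 1 without HoxA5 1, 0 without HoxA5 2, 1 without mCherry 1 and 1 without mCherry 2. Of all genes, 1.42% were called without mCherry 1 and 2.07% without mCherry 2. Without mCherry 3 the count was 4 of 54 (7.41%, against 4.38% of all genes). Without mCherry 4 it was 19 of 54 (35.2%, against 19.9% of all genes).

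The matching symbols that are no integrin subunit did not pass. Itgb1bp1, which binds the tail of beta1, was at 9.90 and 10.20 in HoxA5 tumours, against 10.00 to 10.19 in mCherry tumours (difference -0.05, 95% interval -0.58 to 0.48, and 0.15 with median scaling). Itgb3bp, a centromere protein, was at 7.23 and 8.0, against 7.73, 6.30, 6.70 and 7.43, a difference of 0.58. Itgb1bp2 was above background on 1 of 6 arrays and was not tested. The remaining 6 untested members were the integrin subunits Itga2, Itgax, Itgb2l, Itgb3, Itgb6 and Itgb7.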

How the data were processed

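Per the labels, total RNA from tumour tissue was biotin-labelled and hybridised to Illumina bead arrays. The authors deposited linear intensity values without normalization between arrays and, per the file headers, a detection p-value for each probe and array. The authors' deposited log2 values, for which the submitters' processing notes name limma, were used as an alternative; they rank the probes as the intensities do on every array (Spearman correlation 1), and how their background was treated is unknown here. The intensities went through neqc (limma 3.58.1, R 4.3.3), which corrects the background, normalizes by quantiles and takes log2 after an offset of 16, and which understates differences of dim probes. Quantile normalization gives all arrays the same distribution and can hide a change in total RNA. Kept were probes named by 1 symbol that were detected (p-value under 0.05) on 2 or more of 6 arrays, and each of 12242 genes is read by its brightest probe. The groups were compared with lmFit and eBayes with an intensity trend (4 residual degrees of freedom, to which the prior adds 5.52 at the median), adjusted by Benjamini-Hochberg over all genes tested. For 12 of 15 members with several kept probes, these had differences of 1 sign. A gene dimmer than the detection threshold throughout a group gets a fold that is a bound, against each array's lowest detected signal or the gene's own, if higher. That bound holds for the means of these arrays on the background-corrected scale only. Intervals are 95%. The members and gene lists were chosen with earlier results of these data known. All tested members are named, plus up to 3 genes of each pathway list by smallest p, and Rgs5, Tagln and Acta2 of the mural list. Gfap, S100b, Thy1 and Ly6c1 are named because they go against their lists, and the tested T and NK cell genes because they disagree in sign. Ttk, Ube2c, Ccna2, Lrrc15 and Kl are named because they met the filter through 1 group alone. Csf3r and Arg1 are named as the ends of their list's range. The number of arrays limits the precision. The fit was tested on simulated data whose errors were independent between genes and arrays. Effects shared by the genes of an array were not simulated.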

Additional observations from a re-analysis of the deposited data

How the results depend on the processing

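The members' calls, 0 higher and 1 lower, held under 10 of the 12 alternatives that kept all arrays, and at a threshold of 0.1, and Itgb4 passed in all 12. Array weights called 2 members higher (Itgb1 and Lamb1) and 1746 genes in all, and the replicate number as a block called 1 higher (Lamb1 at 1.97) and 905 genes. The groups share only numbers 1 and 2, and deviations of same-numbered arrays correlated at -0.364 and -0.236. The deviations of 2 HoxA5 arrays are mirror images, so with the numbers swapped the values were 0.364 and 0.236. They therefore cannot decide whether the numbers pair the arrays. With 1 array left out, 2 to 2408 genes, 0 to 8 members higher, 0 to 2 members lower and 0 to 19 pathway genes were called. The cause was not tested. At a threshold of 0.1, 1509 genes and 9 pathway genes passed; pathway genes numbered 8 with median scaling, 3 without a detection filter, 3 without an intensity trend and 13 with array weights, against 5. The integrin median was 0.74 over genes detected on all arrays, where fewer genes were tested, and 0.15 without a detection filter, against 0.30. With 1 array left out the integrin median ran from 0.22 to 0.50, and the basement membrane median from 0.59 to 1.14. Of 840 differences of single genes under an alternative, 20 changed sign, all of genes that did not pass. Itga4 was at 0.039 with the replicate block, Itgb1bp1 at 0.15 with median scaling, and Itgbl1 at -0.0065 without background correction, -0.0072 in the authors' values and -0.45 with the mean of its probes. With 1 array left out the differences ran from -1.10 to 0.32 for Itga11, -0.38 to 0.12 for Itga2b, -0.019 to 0.36 for Itga3 and -0.18 to 0.13 for Itga4. They ran from -0.82 to 0.065 for Itgae, -0.24 to 0.14 for Itgam, -0.20 to 0.10 for Itgb1bp1 and -0.032 to 1.09 for Itgb5. For Itgbl1 they ran from -0.21 to 0.15, for Lama5 from -0.068 to 0.50, for Lamb2 from -0.78 to 0.17 and for Lamb3 from -0.74 to 0.13. Fits without a HoxA5 array have 1 such array, which is assumed to vary like the controls. Signal over background limits the leukocyte integrins, Itga4, Lama4 and the 7 untested members.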

Other observations

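Itgbl1, which encodes a secreted protein with integrin-like repeats, had probes that disagreed, as seen after its values were known. One was at 5.89 and 5.58 in HoxA5 tumours, against 5.73, 5.10, 5.98 and 6.12 in mCherry tumours (difference 0.0020). The other was at 4.84 and 4.54 in HoxA5 tumours and at 5.98, 5.51, 6.11 and 4.73 in mCherry tumours, above background on 3 of 6 arrays (difference -0.89). Both passing probes of Itgad had the same split of arrays as this second probe. The probes of Itga6 and of Itgae also disagreed in sign. Which transcripts these probes read is not known here.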
